A study of Mus musculus with 32 samples.

Results

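The course of the pristane response was compared between BALB/c and DBA mice as a single interaction of strain and time. For each gene, the change in response between day 3 and day 18 in DBA was taken from the change in response over the same days in BALB/c. The response at each day was treated minus untreated mesentery of the same strain, so the contrast reads (BALB/c day 18 minus BALB/c day 3) minus (DBA day 18 minus DBA day 3). A negative value means that the response grew more, or shrank less, over time in DBA than in BALB/c. A positive value means the opposite. It used 25 of the 32 arrays of the series.

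All tissue was mesentery, the fatty fold that suspends the gut, and RNA was measured on Affymetrix 430 2.0 arrays. Treated animals had received 0.5 ml of TMPD (pristane) into the peritoneal cavity. The groups were BALB/c treated for 18 days (4 arrays) with untreated BALB/c of the same run of title codes (3 of 4 arrays), BALB/c treated for 3 days (3) with their untreated BALB/c (3), DBA treated for 18 days (3) with their untreated DBA (3), and DBA treated for 3 days (3) with their untreated DBA (3). No transgene or other agent is named in the labels. The labels give neither age nor sex, nor the DBA substrain, nor whether an array held 1 animal or a pool, so p-values measure the spread between these arrays, which may be partly technical. The remaining BALB/c control array was left out because its pancreatic acinar transcripts were far above those of the other controls, and 6 F1 arrays were not used.

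Pristane is a hydrocarbon oil that cannot be cleared from the peritoneum. It draws neutrophils and monocytes into an oil granuloma, and BALB/c mice given it are prone to plasma cell tumours to which DBA mice are largely resistant. Injection of the oil is also known to switch on type I interferon in inflammatory monocytes. Type I interferon acts through its receptor and a complex of transcription factors that includes STAT2 and IRF9, which binds the interferon-stimulated response element in the promoters of antiviral genes and of Irf7, a transcription factor that feeds back on interferon production. Interferon gamma acts through a receptor of its own on partly overlapping targets, among them guanylate-binding proteins and immunity-related GTPases.

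Of the 55 genes called lower in the interaction, 23 were in the lists of interferon targets used here, so the element that such genes often carry was looked up in their promoters. Its core was searched as GAAA, 2 bases, GAAA on either strand, where the other strand reads TTTC, 2 bases, TTTC. The window ran from 250 bases before to 50 bases after the RefSeq transcription start (build GRCm38.p6). Stretches of 30 bases from 6 genes called lower are shown to let the core be compared between an RNA-binding family (Ifit), a synthetase family (Oas) and GTPases. They are written 5′ to 3′ on the strand of the gene, with the core in capitals. Those of Ifit1 (chr19:34640775-34640804, plus strand) and Ifit3 (chr19:34583363-34583392, plus strand) hold the same core letters, 104 and 156 bases before the start. Those of Oas3 (chr5:120777715-120777744, minus strand) and Oas1a (chr5:120907526-120907555, minus strand) hold cores that begin 75 and 20 bases before it. Those of Irgm2 (chr11:58214903-58214932, plus strand) and Gbp3 (chr3:142559989-142560018, plus strand) hold cores that begin 64 and 45 bases before it.
Ifit1: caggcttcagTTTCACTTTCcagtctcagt
Ifit3: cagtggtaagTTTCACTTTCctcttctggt
Oas3: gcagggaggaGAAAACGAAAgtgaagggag
Oas1a: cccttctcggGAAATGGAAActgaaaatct
Irgm2: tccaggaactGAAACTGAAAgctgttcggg
Gbp3: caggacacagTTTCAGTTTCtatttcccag

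Of the 55 genes called lower, 42 had a promoter in the RefSeq table, and 15 of these (35.7%) held the core. None of the 7 promoters found for genes called higher held it. The core was in 387 of 10325 promoters of all genes tested (3.75%) and in 3.44% of all 32851 windows. For a motif unrelated to interferon, the E-box CACGTG, the share was 1 of 42 (2.38%) among genes called lower, against 11.5% of all genes tested. A match describes letters in a window and does not show that a factor binds there.

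The arrays differed in ways that touch the results. Of the 20 tested pancreatic acinar markers, the summed signal reached 2584 to 245930 on treated BALB/c arrays at day 18 and 1627 to 25953 on their controls, against 646 to 7688 on all other arrays used. Of the 16 tested intestinal epithelial markers, the summed signal was 2647 to 17362 on treated BALB/c arrays at day 18 and 1279 to 7718 on all others. Xist, the transcript of the inactive X chromosome, was low on 8 of the 25 arrays, all of them in the 4 groups of the day 18 runs (2 of 4 treated BALB/c, 2 of 3 BALB/c controls, 2 of 3 treated DBA and 2 of 3 DBA controls), and high on the other 17. The ratio of 3′ to 5′ beta-actin probe sets averaged 1.18 to 1.31 in the day 18 groups and their controls and 1.88 to 2.44 in the day 3 groups and theirs. Treated groups were below their controls in every response. In BALB/c and DBA the ratio was 1.18 and 1.19 against 1.31 and 1.29 at day 18, and 1.88 and 1.93 against 2.42 and 2.44 at day 3. Day and title code run cannot be told apart between responses, whereas each response compares arrays within a run. Median signals were 91.5 to 123, and each array correlated with its best match at r = 0.966 to 0.987.

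Of 12845 genes tested, 66 (0.514%) were called in the interaction at an adjusted p under 0.05 by limma with Benjamini-Hochberg adjustment, 55 lower (0.428%) and 11 higher (0.0856%). Among them, 53 lower and 6 higher genes differed by at least 2-fold. At an unadjusted p under 0.05 there were 890 lower and 993 higher genes, and the median over all genes was 0.04 on the log2 scale. The 55 genes called lower responded least in DBA at day 3 by their median, and some had other courses. Their median response on the log2 scale was 1.54 in BALB/c at day 18, 1.80 in BALB/c at day 3, 2.39 in DBA at day 18 and 0.37 in DBA at day 3. Treatment raised 49, 51, 52 and 21 of them in these groups, against 23.3%, 22.7%, 26.8% and 21.5% of all genes. In either direction, treatment changed 48.9%, 44.8%, 56.7% and 39.4% of all genes. Between the days, the DBA response rose for 50 of the 55, while the BALB/c response changed for 4, all of which fell.

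The background for that change was unequal too, since the DBA response differed between the days for 1218 genes (9.48%) and the BALB/c response for 92 (0.716%). The number of calls in the interaction also depended on single arrays. Leaving out 1 array at a time gave 19 to 153 genes lower and 3 to 147 higher. All 66 genes kept their sign in all 25 such fits, and 19 of the genes called lower were called in every one. Among genes described here, Chil3, Irgm1, Ifih1 and Fzd5 were called in 7 of the 25, Ndufb5 and Wbp1 in 5 and Ywhab in 4. Gatm and Dnajb11 were called in 8, Ypel2 and Dtx3l in 10, Prg4, Rab30 and Pml in 11, and Rabac1 in 12. Gbp3 was called in 15, Irgm2 in 16 and Zbp1 in 18. Without the 3 treated and 2 control BALB/c arrays of the day 18 run that had high pancreatic markers, 1 array of each was left there, and 0 genes were called by limma while 1069 had an unadjusted p under 0.05. In that setting 26 of 33 type I interferon-stimulated genes were still lower at an unadjusted p under 0.05. With the 17 arrays high in Xist, 6 genes were called and 1353 had an unadjusted p under 0.05, and with the left-out BALB/c control array kept, 13 were called and 1440 had. Of the 26 called genes with another probe set above the dim limit, all 38 such probe sets had the same sign. Most of them had a limma adjusted p above 0.05, and sizes differed. Those of Rnf213 and Rnf114 that were furthest off had -0.13 and -0.15, against -2.13 and -0.98, while that of Zbp1 had -4.23, against -2.50.

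Usp18, the protease that removes ISG15 from proteins and damps interferon receptor signalling, shows the course most plainly. Signals in BALB/c at day 18 were 4637, 3420, 1969 and 3479, against 278, 463 and 273 in their controls. Signals in BALB/c at day 3 were 2461, 1320 and 3449, against 248, 250 and 337 in their controls. Usp18 was thus high on every treated BALB/c array at both days, without overlap with the controls. Signals in DBA at day 18 were 4135, 3236 and 4840, against 243, 173 and 219 in their controls. In DBA at day 3 they were 229, 229 and 146, against 246, 188 and 182 in their controls. Treated and control arrays overlapped only in DBA at day 3. The responses were 3.20 ± 0.28 and 2.91 ± 0.30 in BALB/c at days 18 and 3, and 4.10 ± 0.30 and -0.04 ± 0.30 in DBA (log2, SE). The interaction of Usp18 was -3.85 ± 0.59 (SE), with a limma adjusted p of 0.005.

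Irf7 encodes the transcription factor that amplifies type I interferon production. Its signals were 8518, 6282, 5160 and 7983 in BALB/c at day 18, against 471, 1582 and 784 in their controls, and 2262, 1353 and 5008 in BALB/c at day 3, against 271, 356 and 408. In DBA it had 7583, 4960 and 9271 at day 18, against 433, 316 and 353 in controls, and 390, 582 and 377 at day 3, against 322, 428 and 407. Irf7 overlapped with its controls only in DBA at day 3. The BALB/c controls of the day 18 run were higher than those of the day 3 run. The interaction was -3.78 ± 0.75 with a limma adjusted p of 0.021. Taken over the treated arrays alone it was -2.47, and over the control arrays alone it was 1.31.

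Ifit1 and Ifit3 belong to a family that binds viral RNA. Ifit1 signals were 7842, 5234, 2853 and 4633 in BALB/c at day 18, against 425, 764 and 412 in controls, and 5018, 3279 and 7418 in BALB/c at day 3, against 566, 549 and 729. In DBA, Ifit1 had 5268, 3917 and 5807 at day 18, against 272, 179 and 247 in controls, and 610, 577 and 404 at day 3, against 340, 387 and 466. Every treated array except those of DBA at day 3 was several times above its controls. The interaction was -3.70 ± 0.60 for Ifit1 (limma adjusted p = 0.0072) and -3.45 ± 0.67 for Ifit3 (limma adjusted p = 0.021). Ifit3 responses were 2.61 and 2.21 in BALB/c at days 18 and 3, and 3.61 and -0.23 in DBA.

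The oligoadenylate synthetases activate ribonuclease L, which degrades RNA in infected cells. Oas3 signals were 2141, 1264, 1068 and 1238 in BALB/c at day 18, against 19.1, 15.6 and 13.5 in controls, and 1630, 1023 and 1786 in BALB/c at day 3, against 18.1, 11.5 and 18.0. In DBA, Oas3 had 2093, 1230 and 2354 at day 18, against 72.7, 29.0 and 23.4 in controls, and 141, 75.0 and 34.8 at day 3, against 22.5, 14 and 9.3. Treated DBA arrays at day 3 were above all of their controls but far below every other treated array. All control signals of Oas3 were under the dim limit of 103.7, and the offset added before taking logs understates its responses. The interaction was -3.62 ± 0.65 for Oas3 (limma adjusted p = 0.013). It was -3.02 ± 0.44 for Oas2 (adjusted p = 0.0033) and -2.55 for Oas1a (adjusted p = 0.0082). Unlike Usp18, all 3 synthetases already responded in DBA at day 3, by 1.32 for Oas3, 0.75 for Oas2 and 1.13 for Oas1a.

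The RNA helicases Ddx58 (RIG-I), Ifih1 (MDA5) and Dhx58 (LGP2) detect viral RNA in the cytosol or tune that detection. Dhx58 had signals of 2183, 1448, 993 and 1607 in BALB/c at day 18, against 137, 235 and 182 in controls, and 1018, 751 and 1305 in BALB/c at day 3, against 114, 151 and 105. In DBA, Dhx58 had 2102, 1494 and 2314 at day 18, against 203, 134 and 128 in controls, and 198, 193 and 138 at day 3, against 129, 110 and 161. The treated and control arrays of DBA at day 3 overlapped, and no other pair did. The interaction was -3.04 ± 0.50 for Dhx58 (limma adjusted p = 0.0072), -2.03 ± 0.29 for Ddx58 (adjusted p = 0.0033) and -1.80 for Ifih1 (adjusted p = 0.048). Other probe sets of Dhx58 had -3.13 and -0.45 (limma adjusted p = 0.011 and 0.76). Those of Ddx58 had -1.29 and -1 (adjusted p = 0.25 and 0.35). Ddx58 responded in all 4 groups, by 1.39 and 1.61 in BALB/c at days 18 and 3 and by 2.39 and 0.58 in DBA.

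Slfn1, a Schlafen family gene known for restraining thymocyte growth, had signals of 2789, 2122, 1342 and 2666 in BALB/c at day 18, against 113, 151 and 104 in controls. Its signals were 1865, 1330 and 2354 in BALB/c at day 3, against 56.0, 59.2 and 58.8. In DBA, Slfn1 had 3216, 2788 and 3514 at day 18, against 167, 139 and 84.2 in controls, and 348, 219 and 147 at day 3, against 67.2, 120 and 80.1. Slfn1 was above its controls without overlap in all 4 groups, by the least in DBA at day 3. The interaction was -3.81 ± 0.55 (limma adjusted p = 0.0033). Ifi209 and Ifi204, members of the Ifi200 family of nuclear proteins that includes DNA sensors, had interactions of -2.95 ± 0.59 (adjusted p = 0.024) and -2.74 ± 0.54 (adjusted p = 0.021). Zbp1, a sensor of nucleic acid in the Z form, had -2.50 (adjusted p = 0.026), and Stat2, which carries the signal of the type I receptor, had -2.14 (adjusted p = 0.0084).

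**Figure D1:**
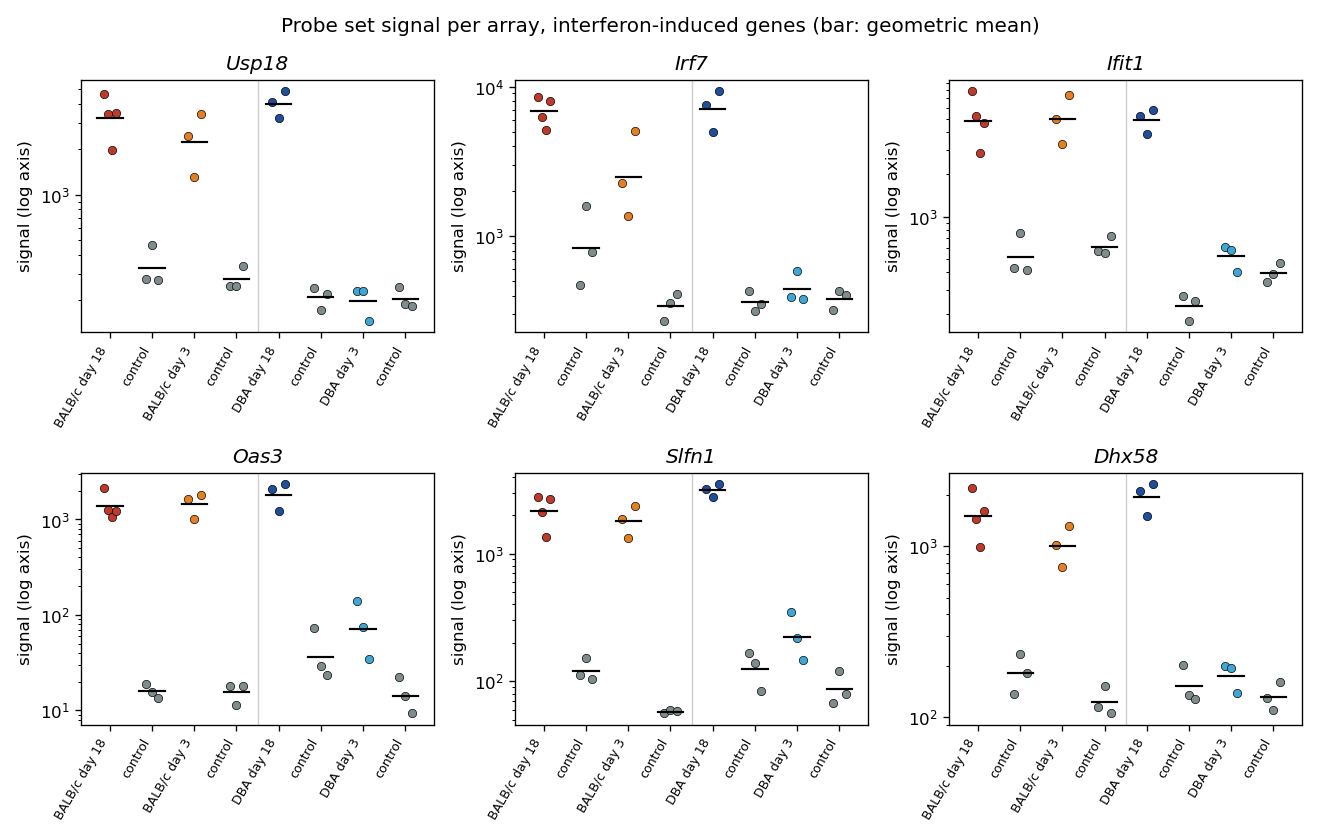
Signals of interferon-stimulated genes on each of the 25 arrays, 1 panel per gene, with a log axis in array signal units and a bar at each group's geometric mean. Treated groups stand left of their own controls; in the panel of Usp18 the 3 treated DBA arrays at day 3 lie at 146 to 229, among their controls at 182 to 246, while treated arrays of the other 3 groups lie at 1320 to 4840.

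The list of type I interferon-stimulated genes held 40 symbols, of which 33 were tested. Among those not tested, Isg15, Ifit3b, Oas1g, Ifi44 and Ifi205 had no probe set of their own in the annotation, and Ifi203 was dim. In the interaction, 20 of the 33 were called lower and 0 higher by limma, and the median was -2.50 against 0.04 over all genes. At an unadjusted p under 0.05, 32 were lower and 0 higher. The exception was Ifi27l2a, with 0.11 and a limma adjusted p of 0.88, whose signals lay between 11030 and 28054 on all arrays used. The list was chosen with earlier results of these data known, so its direction is a description.

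The list's median response was smallest in DBA at day 3 and largest in DBA at day 18. Treatment raised 32 of the 33 genes in BALB/c at day 18, 31 in BALB/c at day 3 with 1 fall, 32 in DBA at day 18 and 16 in DBA at day 3. The median responses were 2.33 and 2.17 in BALB/c at days 18 and 3, and 3.17 and 0.65 in DBA. Between the days, the DBA response rose for 32 of the 33, against 4.55% of all genes, with a median difference of 2.50. The BALB/c response differed for 0 of them by limma, also at an unadjusted p under 0.05, with a median difference of 0.09. BALB/c minus DBA was called higher at day 3 for 22 of the 33, against 1.11% of all genes, and lower for 0, against 0.732%. In either direction, 1.84% of all genes were called at day 3 and 2.05% at day 18. At day 18 it was called lower for 3, Ifi204 (-1.58), Stat2 (-1.47) and Ddx58, against 1.07% of all genes, and called higher for 0, against 0.981%. At an unadjusted p under 0.05, 22 of the 33 were lower and 0 higher at day 18, with a median of -0.73, against 30 higher and 1 lower at day 3, with a median of 1.58.

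For 31 of the 33 genes, all 3 treated DBA arrays at day 3 lay below all 10 other treated arrays, which was so for 6.43% of all genes. Treated arrays lay above their controls without overlap for 31 of the 33 in BALB/c at day 18, 31 in BALB/c at day 3, 33 in DBA at day 18 and 20 in DBA at day 3, against 23.9%, 26.9%, 28.9% and 27.6% of all genes. The list's median interaction was -2.47 over treated arrays alone and 0.05 over control arrays alone. The mean log2 level of the list was 10.78 to 11.71 on treated BALB/c arrays at day 18, 10.52 to 11.43 on treated BALB/c arrays at day 3, 11.09 to 11.71 on treated DBA arrays at day 18 and 8.60 to 8.97 on treated DBA arrays at day 3. Controls lay between 8.05 and 9.17. In bulk tissue, fewer cells of a type and less RNA per cell cannot be told apart.

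Interferon gamma targets and GTPases also responded most in DBA at day 18 and least in DBA at day 3, with medians of 1.12 and 1.32 in BALB/c at days 18 and 3, and 1.75 and 0.39 in DBA. Of 16 tested, 3 were called lower in the interaction, against 0.428% of all genes, and 0 higher, with a median of -1.33, and 10 were lower at an unadjusted p under 0.05. The 3 were Gbp3, a guanylate-binding protein (-2.24, limma adjusted p = 0.03), and Irgm2 and Irgm1, immunity-related GTPases that guard membranes against vacuolar pathogens (-1.87 and -1.84, adjusted p = 0.028 and 0.048). Irgm2 signals were 3002, 2179, 1786 and 2207 in BALB/c at day 18, against 913, 1247 and 876 in controls, and 3009, 3047 and 4306 at day 3, against 862, 883 and 1135. DBA signals were 2843, 2230 and 3148 at day 18, against 750, 563 and 606 in controls, and 1296, 1468 and 1410 at day 3, against 665, 1002 and 664. Irgm2 was above its controls without overlap in all 4 groups. The DBA response rose between the days for 11 of the 16 genes, against 4.55% of all genes, and the BALB/c response changed for none by limma, against 0.716% (2 higher and 2 lower at an unadjusted p under 0.05). Iigp1, Gbp6 and the chemokine Cxcl9 had interactions of -2.48, -1.99 and -1.91 that did not pass (limma adjusted p = 0.12, 0.061 and 0.31).

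Genes of antigen presentation by MHC class I, which interferons induce, moved less. None of 12 was called in the interaction by limma. The median was -0.67, and 7 were lower and 1 higher at an unadjusted p under 0.05. Tap1, the peptide transporter, had -1.94 (adjusted p = 0.053), and the immunoproteasome subunits Psmb9 and Psmb8 had -1.56 and -1.34 (adjusted p = 0.069 and 0.11). The 9 tested genes of MHC class II, which professional antigen-presenting cells express, had a median of 0.19, with none called.

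Markers of the cells that fill the granuloma were raised in DBA at day 3 as well. Of 22 tested monocyte and macrophage markers, treatment raised 21 in BALB/c at day 18, 18 in BALB/c at day 3, 22 in DBA at day 18 and 22 in DBA at day 3, against 23.3%, 22.7%, 26.8% and 21.5% of all genes. Their median responses were 2.37, 2.17, 3.04 and 2.12. None was called in the interaction by limma, 8 were lower and 2 higher at an unadjusted p under 0.05, and the median was -0.26. Their mean log2 level was 11.22 on treated BALB/c and 11.25 on treated DBA arrays at day 3. Fcgr1, the high-affinity IgG receptor, had an interaction of -2.18 and Ms4a6d one of -1.47 (limma adjusted p = 0.053 and 0.089). Of 19 tested neutrophil markers, treatment raised 17, 15, 19 and 11 in the same order of groups and beside the same shares of all genes, with medians of 3.44, 2.76, 3.07 and 2.14. Their median interaction was -0.10 with none called by limma.

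Of 25 tested inflammatory cytokines and chemokines, treatment raised 23 in BALB/c at day 18, 23 in BALB/c at day 3, 22 in DBA at day 18 and 24 in DBA at day 3, against 23.3%, 22.7%, 26.8% and 21.5% of all genes. Their medians were 2.37, 2.55, 2.82 and 2.33. None was called in the interaction by limma, 6 were lower and 2 higher at an unadjusted p under 0.05, and the median was -0.47. The monocyte attractants Ccl12 and Ccl7 had -3.01 and -2.73, with limma adjusted p of 0.13 and 0.18. The plot of list responses sets the interferon-stimulated genes beside macrophage markers and beside proliferation and adipocyte genes.

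**Figure D2:**
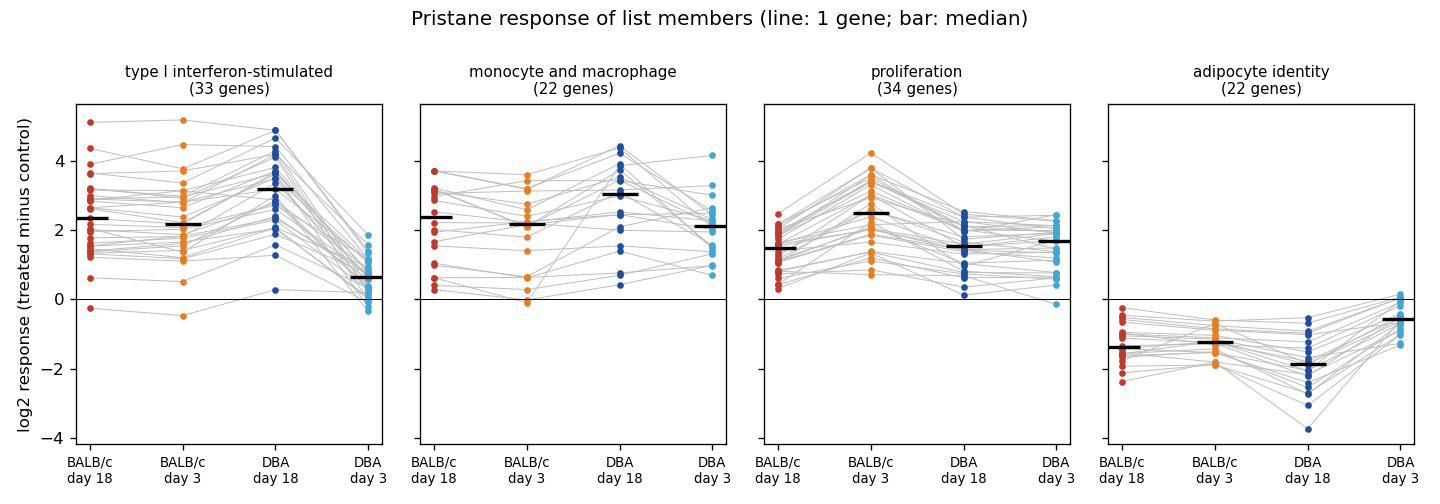
Log2 response to pristane of the tested members of selected gene lists in the 4 groups, with 1 point and grey line per gene and a bar at each group's median. Type I interferon-stimulated genes sit at medians of 2.33, 2.17, 3.17 and 0.65 in BALB/c at days 18 and 3 and DBA at days 18 and 3, while monocyte and macrophage markers sit at 2.37, 2.17, 3.04 and 2.12.

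Another course gave 4 of the genes called lower: their BALB/c response itself fell between the days. Chil3 encodes Ym1, a secreted protein of alternatively activated macrophages. Its signals were 824, 310, 291 and 603 in BALB/c at day 18, against 7.6, 4.4 and 4.5 in controls, and 3036, 4266 and 2155 at day 3, against 0.8, 10.9 and 12.4. The DBA arrays had 1724, 3157 and 2168 at day 18, against 73.1, 5.5 and 33.9 in controls, and 1268, 804 and 392 at day 3, against 39.9, 5.5 and 24.4. Chil3 was far above its controls in all 4 groups, and its treated BALB/c arrays at day 3 were all above those at day 18. Treated DBA arrays at day 18 overlapped with BALB/c at day 3, and those at day 3 overlapped with BALB/c at day 18. The interaction was -3.86 ± 0.86 with a limma adjusted p of 0.042, and leaving out 1 array ended the call in most fits (called in 7 of 25). Chil3 was the only one of 15 tested alternative activation genes called, and their median was -0.41.

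Rnase2a, an eosinophil-associated ribonuclease, had signals of 140, 246, 249 and 99.6 in BALB/c at day 18, against 322, 242 and 502 in controls. In BALB/c at day 3 it had 13475, 14376 and 9894, against 1058, 1183 and 856. In DBA, it had 3646, 1699 and 3258 at day 18, against 1890, 2214 and 941 in controls, and 10009, 6064 and 4907 at day 3, against 2480, 2235 and 1701. Treated arrays were above their controls without overlap at day 3 in both strains, and overlapped with them at day 18 in both. The response was -0.89 in BALB/c at day 18 and 3.57 at day 3, and 0.78 in DBA at day 18 and 1.65 at day 3. The interaction was -3.58 ± 0.70 (limma adjusted p = 0.021). The 11 tested eosinophil and mast cell markers had a median interaction of -0.70.

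The other pair, Gatm and Akr1e1, are metabolic enzymes named here after their values were seen, as members of these 4. Gatm, which makes the creatine precursor guanidinoacetate, had signals of 1694, 1342, 1760 and 1682 in BALB/c at day 18, against 645, 698 and 549 in controls, and 3176, 3311 and 2607 at day 3, against 535, 544 and 422. In DBA they were 4111, 2852 and 3839 at day 18, against 553, 542 and 557 in controls, and 3023, 2561 and 1908 at day 3, against 383, 450 and 438. Gatm was above its controls in all 4 groups and lowest in BALB/c at day 18. Its interaction was -1.38 ± 0.31 (limma adjusted p = 0.043). Gatm is also known to be expressed in pancreas, and its signal was 9756 on the BALB/c control array left out for pancreatic transcripts; the part of pancreas in its values was not tested. Akr1e1, an aldo-keto reductase, had -1.08 ± 0.21 (adjusted p = 0.021), with responses of -0.67 and 0.35 in BALB/c at days 18 and 3 and -0.47 and -0.53 in DBA. Taken over the treated arrays alone, the interaction of Akr1e1 was -0.24, and over the control arrays alone it was 0.83. Mean signals were 708 and 737 on treated BALB/c arrays at days 18 and 3, against 1140 and 571 on their controls. The fall in its BALB/c response thus lay mostly in controls of different title code runs.

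Pla2g2e, a secreted phospholipase, was chosen after its values were seen because its response was larger in BALB/c at both days. Its signals were 291, 219, 183 and 382 in BALB/c at day 18, against 24.6, 16.0 and 15.2 in controls, and 675, 547 and 325 at day 3, against 10.2, 10.6 and 2.5. DBA signals were 87.6, 115 and 143 at day 18, against 51.9, 18.8 and 34.5 in controls, and 73.5, 89.5 and 84.7 at day 3, against 75.2, 90.2 and 130. Treated arrays were above controls everywhere but in DBA at day 3. The interaction was -2.71 ± 0.53 (limma adjusted p = 0.021). Over treated arrays alone it was -1.24 and over control arrays alone 1.47, so controls of different runs carried the larger part. Mean signals of the DBA controls were 35.1 in the day 18 run and 98.4 in the day 3 run, both under the dim limit of 103.7.

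The 11 genes called higher had mostly lost expression under treatment, and most strongly in DBA at day 18. Their median response was -0.38 in BALB/c at day 18, -0.62 in BALB/c at day 3, -0.94 in DBA at day 18 and -0.17 in DBA at day 3. Treatment lowered 7, 11, 11 and 4 of them, against 25.6%, 22.1%, 29.9% and 17.9% of all genes. Between the days, the DBA response fell for 10 of the 11 and the BALB/c response rose for 1, Mme. Laptm4b, Rtl8c and Mme were called in all 25 fits that left out 1 array. The median interaction of the 11 was 0.67 over treated arrays alone and -0.24 over control arrays alone.

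Mme encodes neprilysin, a cell surface peptidase. Its signals were 810, 977, 799 and 680 in BALB/c at day 18, against 1042, 1160 and 996 in controls, and 597, 556 and 508 at day 3, against 1433, 1694 and 1816. The DBA arrays had 528, 954 and 585 at day 18, against 1821, 1790 and 1536 in controls, and 1559, 1808 and 1732 at day 3, against 2708, 3070 and 2926. Mme was below its controls without overlap in all 4 groups, by the least in BALB/c at day 18. The interaction was 1.71 ± 0.31 with a limma adjusted p of 0.014.

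Prg4 encodes lubricin, a lubricating glycoprotein of joints and serous surfaces. Its signals were 2498, 2243, 2681 and 2494 in BALB/c at day 18, against 2290, 2269 and 2947 in controls, and 1522, 1105 and 976 at day 3, against 1946, 1834 and 2222. In DBA they were 1100, 737 and 598 at day 18, against 2193, 2272 and 1844 in controls, and 1249, 1095 and 1186 at day 3, against 1826, 1848 and 1439. Prg4 overlapped with its controls in BALB/c at day 18 and was below them in the other 3 groups. The interaction was 1.61 ± 0.34 (limma adjusted p = 0.037), with responses of -0.01 and -0.74 in BALB/c at days 18 and 3 and -1.39 and -0.52 in DBA.

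Laptm4b, a lysosomal membrane protein, had signals of 9448, 8455, 8698 and 9047 in BALB/c at day 18, against 9784, 9768 and 10753 in controls, and 11255, 11003 and 11972 at day 3, against 12819, 15367 and 15453. DBA signals were 6433, 5088 and 4971 at day 18, against 10840, 10499 and 10184 in controls, and 10338, 10595 and 12552 at day 3, against 12002, 11182 and 11734. Only treated DBA arrays at day 18 were far below their controls. The interaction was 1.04 ± 0.19 (limma adjusted p = 0.014). The GTPase Rab30 of the Golgi apparatus had 1.42 ± 0.31, Ypel2 had 1.16 ± 0.25 and the retrotransposon-derived gene Rtl8c had 1.07 ± 0.20 (adjusted p = 0.039, 0.038 and 0.015). The other 5 were under 2-fold: the Wnt receptor Fzd5 (0.96), Wbp1 (0.87), the Rab acceptor Rabac1 (0.74), the respiratory complex I subunit Ndufb5 (0.72) and the phosphoprotein adaptor Ywhab (0.71), with adjusted p of 0.037 to 0.048. Over treated arrays alone the interaction was 0.54 for Rab30, 0.34 for Fzd5 and 0.22 for Ndufb5. Over control arrays alone it was -0.88, -0.62 and -0.50, and only for these genes called higher was the control part the larger. Mean Rab30 signals were 340 in DBA controls of the day 18 run and 171 to 212 in the other controls. Those of Fzd5 were 601 and 343 to 375.

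**Figure D3:**
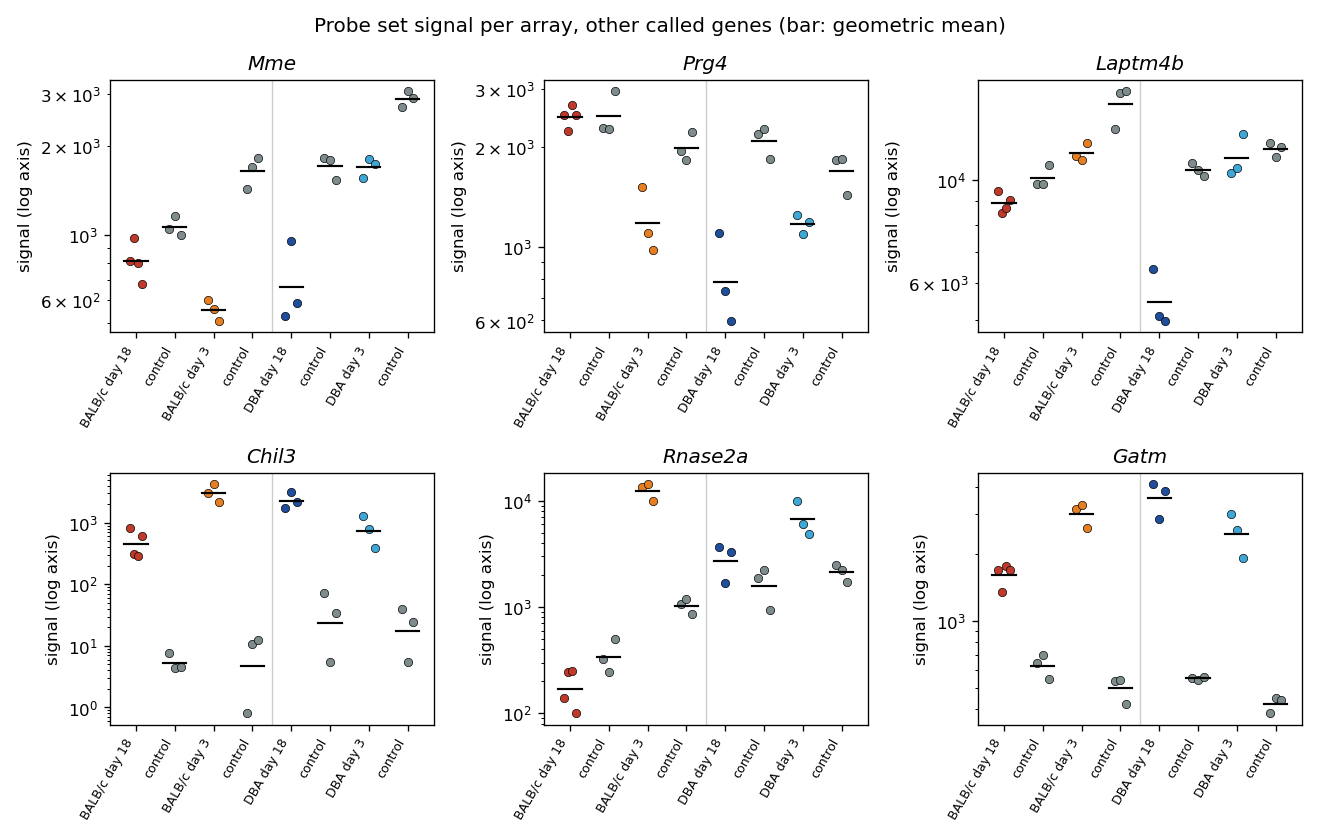
Signals of genes with other courses on each of the 25 arrays, 1 panel per gene, with a log axis in array signal units, a bar at each geometric mean and treated groups left of their own controls. Rnase2a lies at 9894 to 14376 on treated BALB/c arrays at day 3 and at 99.6 to 249 on those at day 18; Mme lies at 508 to 597 on treated BALB/c arrays at day 3 and at 680 to 977 on those at day 18.

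Proliferation genes were higher under treatment in every group and most of all in BALB/c at day 3. Of 34 tested, treatment raised 32 in BALB/c at day 18, 33 in BALB/c at day 3, 31 in DBA at day 18 and 32 in DBA at day 3, against 23.3%, 22.7%, 26.8% and 21.5% of all genes. Their medians were 1.47, 2.48, 1.55 and 1.68. None was called in the interaction by limma, but 33 of 34 values were negative, 17 were lower and 0 higher at an unadjusted p under 0.05, and the median was -1.12. The BALB/c response fell between the days for 2 genes, against 0.35% of all genes, with a median difference of -1.15. The DBA response changed for none by limma, against 9.48% of all genes, and for none at an unadjusted p under 0.05. Its median difference was 0.01. Mki67, a marker of cycling cells, had signals of 1706, 1068, 943 and 1182 in BALB/c at day 18, against 81.9, 372 and 228 in controls, and 2510, 2191 and 2012 at day 3, against 97.4, 88.3 and 104. In DBA, Mki67 had 967, 3797 and 900 at day 18, against 254, 382 and 162 in controls, and 1597, 1320 and 1043 at day 3, against 318, 332 and 151. Mki67 was above its controls without overlap in all 4 groups. Its interaction was -1.95 (limma adjusted p = 0.31), and that of the cell cycle transcription factor Foxm1 was -1.95 (adjusted p = 0.073). Over treated arrays alone Foxm1 had -0.81, and over control arrays alone 1.14. The list's median was -0.87 and 0.26 in the same order.

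Adipocyte genes went down under treatment, and least in DBA at day 3. Of 22 tested, treatment lowered 19 in BALB/c at day 18, 21 in BALB/c at day 3, 22 in DBA at day 18 and 5 in DBA at day 3, against 25.6%, 22.1%, 29.9% and 17.9% of all genes, so that the share in DBA at day 3 was near that of all genes. Their medians were -1.38, -1.24, -1.87 and -0.57. None was called in the interaction by limma, but all 22 values were positive, 12 were higher and 0 lower at an unadjusted p under 0.05, and the median was 1.34. The DBA response fell further between the days for 9 of 22, against 4.94% of all genes, with a median difference of -1.24. The BALB/c response changed for none by limma (1 lower and 0 higher at an unadjusted p under 0.05), with 0.10.

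Acvr1c, the activin receptor of fat cells, had signals of 125, 161, 158 and 95.0 in BALB/c at day 18, against 470, 430 and 415 in controls, and 189, 183 and 145 at day 3, against 494, 543 and 479. The DBA arrays had 297, 62.8 and 184 at day 18, against 1476, 1061 and 1025 in controls, and 980, 1126 and 1281 at day 3, against 1617, 2096 and 1831. Acvr1c was below its controls without overlap in all 4 groups, by the least in DBA at day 3. The interaction was 1.90 for Acvr1c, 2.57 for the hormone leptin (Lep) and 1.81 for the lipid droplet coat protein Plin4, with limma adjusted p of 0.12, 0.36 and 0.12. Lipid synthesis genes (23 tested) had a median of 0.67 and thermogenic genes (11 tested) 0.59, with none called. Of 28 respiratory chain genes, Ndufb5 alone was called, 13 were higher and 0 lower at an unadjusted p under 0.05, and the median was 0.35. That median was 0.14 over treated arrays alone and -0.27 over control arrays alone, so controls of different runs carried the larger part.

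In the remaining lists none of the tested genes was called in the interaction by limma. The plasma cell list (14 tested) had a median of -0.66, with Igha at 1.82, Irf4 at -1.45 and Jchain at -1.10 (adjusted p = 0.27, 0.43 and 0.38). Over treated arrays alone these 3 genes had 0.33, -0.02 and -1.9, and over control arrays alone -1.5, 1.44 and -0.8. The values of Igha and Irf4 thus lay mostly in controls of different runs. B cell markers (17 tested) had a median of 0.41, with 6 higher and 1 lower at an unadjusted p under 0.05. The inhibitory B cell receptor Cd22 had signals of 1874, 1119, 2090 and 1649 in BALB/c at day 18, against 634, 327 and 433 in controls, and 564, 553 and 978 at day 3, against 396, 703 and 720. In DBA, Cd22 lay between 311 and 493 on treated arrays of both days and between 419 and 495 on controls. Treated BALB/c arrays at day 18 were far above all of their controls, treated DBA arrays at day 3 lay slightly above theirs (442, 493 and 453, against 419, 422 and 419), and the other groups overlapped with their controls. The interaction was 1.96 (adjusted p = 0.069). T and NK cell markers (22 tested) had a median of -0.30.

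Genes of lipid-laden macrophages (20 tested) had a median of 0.50 and ran from -1.76 to 2.34. Of them, 15 were positive and 5 negative, and 6 were higher and 2 lower at an unadjusted p under 0.05. Mmp12, macrophage elastase, had 2.34 and Dcstamp, needed for cell fusion, 2.33 (adjusted p = 0.24 and 0.11). Dcstamp signals were only 3.3 to 22.7 on treated BALB/c arrays at day 3, under the dim limit of 103.7. Its interaction was 1.21 over treated arrays alone and -1.12 over control arrays alone. Acute-phase genes (19 tested) had -0.28, with 3 higher and 2 lower at an unadjusted p under 0.05. Their values ran from -2.25 for the serum amyloid gene Saa2 (adjusted p = 0.069) to 6.05 for Reg3b, which is also in the intestinal epithelial list. Matrix genes (27 tested) had -0.03, with Dpt at 0.92 and Col1a1 at -1.21 (adjusted p = 0.058 and 0.16). Over treated arrays alone Dpt had 0.73 and Col1a1 -0.05, and over control arrays alone -0.18 and 1.16. Unfolded protein response genes (20 tested) had -0.29, with the disulfide isomerases Pdia6 and Pdia4 at -1.12 and -1.28 (adjusted p = 0.058 and 0.092). Clock genes (17 tested) had 0.10, with Npas2 at 2.28 and Per2 at -1.49 (adjusted p = 0.21 and 0.089).

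Among lists of other tissues, pancreatic acinar genes (20 tested) had 0.83, ranging from -0.61 to 4.05, and intestinal epithelial genes (16 tested) had 2.70, with all 16 positive and 4 higher at an unadjusted p under 0.05. Fabp2, a fatty acid carrier of enterocytes, had signals of 218, 4260, 1215 and 10.4 in BALB/c at day 18, against 21.7, 4.9 and 15 in controls. Its interaction was 5.39 with an adjusted p of 0.31, and the treated BALB/c arrays at day 18 were spread over the whole range. With the intestinal marker level as a term in the fit, 16 genes were called lower and 2 higher. With the pancreatic marker level as a term, 47 were called lower and 10 higher. Endothelial, mesothelial, smooth muscle and skeletal muscle markers had medians of 0.07, 0.41, 0.55 and 0.66, and neuronal and glial markers (11 tested) had -0.09.

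**Figure D4:**
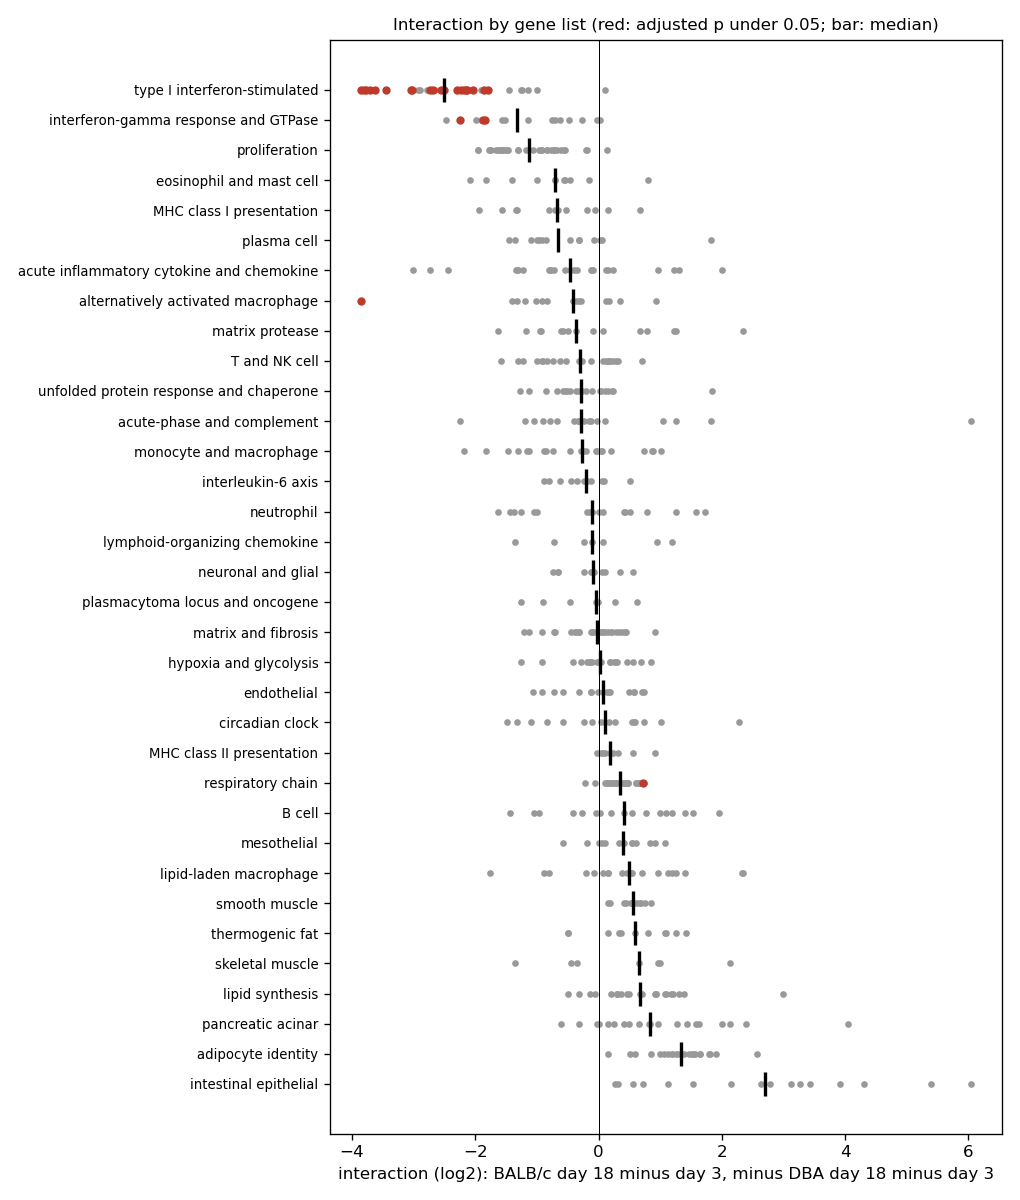
Interaction of strain and time for the tested members of each gene list, in log2 units, with 1 point per gene, red where called, and a bar at each median. Type I interferon-stimulated genes have the lowest median, -2.50, and intestinal epithelial genes the highest, 2.70, against 0.04 over all genes.

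Genes tied to pristane and plasmacytoma had interactions that did not pass. Il6, the growth factor of plasmacytomas, had signals of 782, 747, 583 and 1059 in BALB/c at day 18, against 3.3, 21.7 and 10 in controls, and 620, 178 and 533 at day 3, against 7.1, 2.5 and 10.2. In DBA, Il6 had 370, 903 and 961 at day 18, against 17.7, 1.7 and 27.7 in controls, and 214, 283 and 174 at day 3, against 12.7, 25.7 and 6.3. Il6 was far above its controls in all 4 groups, and the interaction was -0.80 (limma adjusted p = 0.65). The IL-6 receptor gene Il6ra had -0.89 (adjusted p = 0.50). Myc, which is rearranged in plasmacytomas, had -0.90 (adjusted p = 0.19), with responses of 0.52 and 0.89 in BALB/c at days 18 and 3 and 1.15 and 0.63 in DBA. Mtor had -0.04 (adjusted p = 0.95), and Cdkn2a was too dim to be tested.

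The macrophage enzyme Arg1 rose in all 4 groups, by 6.40 and 7.78 in BALB/c at days 18 and 3 and by 5.57 and 7.88 in DBA, with an interaction of 0.93 (limma adjusted p = 0.61). The interferon-inducible chemokine Cxcl10 had responses of 2.90 and 1.76 in BALB/c and 3.19 and 0.90 in DBA at days 18 and 3, and an interaction of -1.14 (adjusted p = 0.53). Mndal, an Ifi200 family gene, had signals of 6251 to 10598 on treated BALB/c arrays of both days, against 2844 to 4396 on their controls. In DBA, its signals were 11.6 to 160 on treated arrays and 24.9 to 62.6 on controls, so its DBA responses rest on levels near or under the dim limit. Its interaction was -1.25 (adjusted p = 0.32).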

How the data were processed

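Mesentery RNA of 32 samples was hybridised to 1 Affymetrix 430 2.0 array each. The deposited values are probe set intensity on a linear scale. GCOS and MAS5 are listed in the submitters' processing notes, without a version; MAS5 gives 1 signal per probe set. On every array the deposited intensity has a 2% trimmed mean of 500, and 13 values are 0. Probe-level values were not used here. The number of arrays, 3 or 4 per group, limits the precision.

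Of 45101 probe sets, 34958 carried 1 symbol in the platform annotation, 932 several and 9211 none; 0 symbols were updated through RefSeq (GRCm38.p6), and 64 are array controls. Probe sets brighter than 103.7 (the median of all values) on 3 or more arrays were kept. Of 18194 genes on the array this left 12845, each taken at its brightest kept probe set (5954 had several).

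The offset 24.9, the 25th percentile of the table, was added to each signal before log2, which understates changes of dim genes. The contrast was defined on plain log2; that form, with values under 1 set to 1, was an alternative. limma 3.58.1 in R 4.3.3 fitted 1 mean per group to 25 arrays (17 residual degrees of freedom) with an intensity trend. P-values are two-sided, adjusted by Benjamini-Hochberg over the 12845 genes, and "called", "rose", "fell", "raised" and "lowered" stand for an adjusted p under 0.05. Groups come from the labels. Responses used controls of their own run of title codes, whose meaning the labels do not give. Tested on simulated data over 12845 genes for this contrast, the fit recovered 25% of 100 genes changed by 1 log2 unit and 86% of 100 changed by 2, and 1.77% of calls were false. The simulated noise was independent between genes and arrays, without variation shared across an array such as tissue content. These rates need not hold for the genes called in the real data.

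Named genes were the 12 largest called contrasts in each direction with the same sign in every fit that left out 1 array, skipping predicted and clone-named genes, up to 4 members of each list, and 8 genes always; others were chosen after their values were seen. The contrast, the 34 lists (679 symbols, 577 tested) and the alternatives were chosen with earlier results of these data known. Lists are described by counts and medians, without a test. Alternatives covered the offset, the dim filter, normalization, the arrays and controls used, the variance model, the choice of probe set, marker levels as terms, and each array left out. The last 3 named here were chosen after seeing the data: leaving out BALB/c day 18 run arrays with high pancreatic markers, arrays with high Xist only, and the intestinal marker level as a term.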

Additional observations from a re-analysis of the deposited data

Results flagged for a closer look

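The interaction itself marks the genes whose pristane response differed between strains in its course over time, by limma with an adjusted p under 0.05. Called lower among the genes named were Chil3 (-3.86), Usp18 (-3.85), Slfn1 (-3.81), Irf7 (-3.78), Ifit1 (-3.70), Oas3 (-3.62), Rnase2a (-3.58), Ifit3 (-3.45), Dhx58 (-3.04), Oas2 (-3.02), Ifi209 (-2.95), Ifi204 (-2.74), Pla2g2e (-2.71), Oas1a (-2.55), Zbp1 (-2.50), Gbp3 (-2.24), Stat2 (-2.14), Rnf213 (-2.13), Ddx58 (-2.03), Mef2b (-1.99), Parp9 (-1.87), Parp14 (-1.86), Wee1 (-1.85), Irgm2 (-1.87), Irgm1 (-1.84), Ifih1 (-1.80), Dtx3l (-1.43), Gatm (-1.38), Dnajb11 (-1.18), Pml (-1.17) and Akr1e1 (-1.08), all on the log2 scale. Called higher were Mme (1.71), Prg4 (1.61), Rab30 (1.42), Ypel2 (1.16), Rtl8c (1.07), Laptm4b (1.04), Fzd5 (0.96), Wbp1 (0.87), Rabac1 (0.74), Ndufb5 (0.72) and Ywhab (0.71).

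Of 86 named genes examined for an array far from the rest in the 4 treated BALB/c arrays at day 18, 3 had one, where chance gives about 1 in 20. Reg3b, an antimicrobial lectin of gut and pancreas listed under an older symbol, had a signal of 55.8 on replicate 1, against 1970 to 3120 on the other arrays of the group. Foxm1 had 245 on replicate 4, against 154 to 162. Gatm had 1340 on replicate 2, against 1680 to 1760.

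Arrays outside the contrast also carried signal. The BALB/c control array left out had a mean log2 level of pancreatic acinar markers of 16.7, against 6.43 to 9.75 on the 3 controls of its run that were used. In the F1 of both strains at day 3, the mean log2 level of the type I interferon-stimulated list was 12.08, 11.87 and 11.98 on treated arrays, against 8.52 to 8.73 on F1 controls. It was 10.52 to 11.43 on treated BALB/c arrays and 8.60 to 8.97 on treated DBA arrays of the same run and day. Xist was high on the treated F1 arrays (15960, 16808 and 12294) and low on the F1 controls (106, 55 and 107). Treatment and Xist level therefore cannot be told apart within the F1.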

How the results depend on the processing

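Sizes and directions held better than the number of calls. In the 25 fits that left out 1 array and the 19 other alternatives, the 66 called genes kept their sign wherever they were tested (61 of them under the stricter dim filter), with the exceptions of Agtrap (1.08 without the BALB/c day 18 run arrays high in pancreatic markers) and Mbd1 (0.27 with the controls of a strain pooled over title code runs). The median of the type I interferon-stimulated list stayed between -2.74 and -1.83. The number of genes called higher was 5 without a dim filter, 21 with a stricter one, 6 with median centring, 7 without the intensity trend, 7 with an ordinary linear model and 401 with array weights. Genes called lower were 85 with the F1 arrays added, 21 with an ordinary linear model and 415 with array weights, and 11 interferon list members were called lower with an ordinary linear model. Pooling the controls makes them cancel in the contrast and gave 358 higher and 236 lower, with 31 interferon list members lower.

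Keeping the left-out BALB/c control gave 0 higher and 13 lower, with 8 interferon list members; at an unadjusted p under 0.05, 1440 genes and 30 members had a difference. Without the high pancreatic arrays it was 0, 0 and 0 (1069 genes and 26 members at an unadjusted p under 0.05, with 32 of 33 members negative). With the 17 arrays high in Xist it was 3, 3 and 1 (1353 genes and 30 members at an unadjusted p under 0.05, all 33 negative), and with the intestinal marker level as a term 2, 16 and 11. The settings without high pancreatic arrays and with Xist-high arrays leave fewer arrays. The intestinal term keeps all 25 arrays and takes a residual degree of freedom, as the other terms do. It gave 18 calls, against 77 with Xist as a term and 57 with the pancreatic marker level as a term. The cause of that difference was not tested. In the setting without high pancreatic arrays, the lone treated and control arrays are assumed to vary like the other groups.

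Leaving out 1 array gave 3 to 147 genes higher, 19 to 153 lower and 12 to 26 interferon list members lower. Calls numbered 175 without BALB/c day 18 replicate 1, 300, 102 and 22 without DBA day 18 replicates 1, 2 and 3, 43 without BALB/c day 3 replicate 1, and 41 and 24 without DBA day 3 replicates 2 and 3. They numbered 27 without BALB/c day 18 run control 3, 35 without DBA day 18 run control 3, 38 without BALB/c day 3 run control 2, and 102 and 40 without DBA day 3 run controls 1 and 2.

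Counted by single probe sets, the day 18 responses had 4577 higher and 5370 lower calls for BALB/c and 5422 higher and 5983 lower for DBA. The day 3 responses had 4499 higher and 4513 lower for BALB/c and 4403 higher for DBA. BALB/c day 18 had 2119 lower without the high pancreatic arrays and 2047 with Xist-high arrays, where DBA day 18 had 2164 higher and 2487 lower. The BALB/c time difference had 22 higher and 12 lower with the left-out control kept, 828 and 775 with pooled controls, 194 and 311 with array weights, 27 and 12 without the high pancreatic arrays, 16 and 9 with Xist-high arrays, and 25 lower with the intestinal term. The DBA time difference had 258 and 157, 2123 and 2814, 1213 and 1698, and 266 and 144 with the left-out control kept, pooled controls, array weights and Xist-high arrays. With 1 array left out, the BALB/c time difference had 21 to 97 higher and 19 to 125 lower, and the DBA one 325 to 702 higher and 291 to 1066 lower.

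Without the high pancreatic arrays, list medians were -1.83 for interferon-stimulated genes, -0.41 for proliferation, 0.67 for adipocytes and -0.68 for interferon gamma targets. With Xist-high arrays they were -0.58 for proliferation and 0.81 for adipocytes, and that of adipocytes was 0.85 after quantile normalization. With 1 array left out they were -2.74 to -2.20 for interferon-stimulated genes, -1.43 to -0.68 for proliferation and -1.64 to -0.94 for interferon gamma targets. Other signs that turned belong to genes not called. With pooled controls they were Arg1 (-0.84), Ifi27l2a (-0.13), Mtor (0.30), S100a8 (-0.69) and S100a9 (-0.74). Ifi27l2a had -0.27 after quantile normalization, 0.00 with the left-out control, -0.07 with Xist-high arrays, -0.02 with the intestinal term and -0.04 without DBA day 3 run control 1, within a range of -0.04 to 0.29 with 1 array left out. Igha had -0.25 with Xist-high arrays. Mtor had 0.05, 0.05 and 0.00 without replicate 1 of BALB/c day 18, DBA day 18 and DBA day 3, within -0.14 to 0.05 over the arrays left out. Xist had -0.95 with array weights and -0.34 without DBA day 18 run control 3, within -0.34 to 4.46 over the arrays left out. The causes of these changes were not tested. No paired analysis was possible because the title codes share no replicate number between groups, and replicate numbers given in accession order only name an array.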

Other observations

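Of the 55 genes called lower, 31 were in none of the lists, and those described here were chosen after their values were seen. Rnf213, a large ubiquitin ligase, had signals of 7437, 5341, 4570 and 6874 in BALB/c at day 18, against 1355, 1653 and 1343 in controls, and 5286, 3918 and 6697 at day 3, against 1131, 1228 and 1463. Its DBA signals were 10443, 7275 and 10568 at day 18, against 1166, 1151 and 1014 in controls, and 2504, 2366 and 1978 at day 3, against 1125, 1314 and 1194. Rnf213 was above its controls without overlap in all 4 groups, by the least in DBA at day 3, and its interaction was -2.13 (limma adjusted p = 0.0084). Another probe set of Rnf213 had only -0.13 (limma adjusted p = 0.91). Parp9 and Dtx3l, which form a complex that modifies histones by ubiquitin, had -1.87 and -1.43 (adjusted p = 0.0082 and 0.038). Pml, the organiser of nuclear bodies, had -1.17 (adjusted p = 0.038). The chaperone Dnajb11 of the endoplasmic reticulum had -1.18 (adjusted p = 0.037).

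Wee1 and Mef2b had a course unlike the interferon targets. Wee1, a kinase that holds back mitosis, had signals of 209, 236, 246 and 183 in BALB/c at day 18, against 249, 274 and 330 in controls, and 800, 804 and 973 at day 3, against 981, 735 and 656. Its DBA signals were 321, 400 and 388 at day 18, against 245, 151 and 294 in controls, and 719, 638 and 797 at day 3, against 1207, 1159 and 1189. Treated DBA arrays were above their controls at day 18 and below them at day 3, and all arrays of the day 3 runs were above all those of the day 18 runs. The interaction was -1.85 (limma adjusted p = 0.015), with responses of -0.34 and 0.13 in BALB/c at days 18 and 3 and 0.67 and -0.71 in DBA. Mef2b, a transcription factor, had -1.99 (adjusted p = 0.015), with DBA responses of 0.61 at day 18 and -1.02 at day 3, and its signals of 47 to 150 on all arrays used lay around the dim limit of 103.7. Over treated arrays alone the interaction was -0.95 for Wee1 and -0.9 for Mef2b. Over control arrays alone it was 0.9 and 1.09, so much of both lay in controls of different runs.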
